A study of Mus musculus with 19 samples.

Results

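Peaks of 5-hydroxymethylcytosine (5hmC) were described at the loci of 5 mouse genes that write or erase methylation of histone H3 lysine 9, Kdm3b, Kdm3a, Ehmt2, Ehmt1 and Setdb1. Each locus is an mm9 window set around the gene with flanks, and every peak of the 18 deposited lists that touches a window is a member. The windows are chr18:34925000-35005000 for Kdm3b, chr6:71530000-71595000 for Kdm3a, chr17:35030000-35056000 for Ehmt2, chr2:24640000-24785000 for Ehmt1 and chr3:95120000-95170000 for Setdb1. They held 521 of the 1601520 deposited peaks, of which 123 lay at Kdm3b, 83 at Kdm3a, 128 at Ehmt2, 113 at Ehmt1 and 74 at Setdb1. Gene ends, exons and introns of mm9 were not used here, so a peak is given by its position only and may belong to a neighbouring gene.

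The peaks come from 5hmC enrichment sequencing of genomic DNA during the conversion of pre-iPSCs, which are stalled intermediates of reprogramming derived from mouse embryonic fibroblasts. Knockout cells (KO) gave a library each of KO1 and KO2 at day 0, day 2 and day 10, written D0, D2 and D10. From wild-type cells (WT) there were libraries A, B and C on each of the same days. All carry the treatment label AA+2i, D0 included, which stands for ascorbic acid with CHIR-99021 and PD-0325901, inhibitors of GSK3 and MEK. V6.5 mouse embryonic stem cells (mESC), under the same treatment label, were sampled at 0, 12 and 72 hours, with 1 unreplicated library per time. The labels do not name the deleted gene, the promoter or method of the deletion, or whether KO1 and KO2 are single clones. Run names in the deposited lists read CrisprKO for KO1 and CKO-H for KO2, without explanation. They also do not say that the libraries of a group were separate cultures, so the p-values below measure the spread between these libraries, which may be technical. No expression was measured in these files, and the cell types were not checked against markers.

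Methylation of H3 lysine 9 marks silent chromatin and is known as a barrier to reprogramming. EHMT2 (G9a) and EHMT1 (GLP) work as a pair to place the mono- and dimethyl marks, and SETDB1 places the trimethyl mark, among others on retroelements. KDM3A and KDM3B remove mono- and dimethyl marks, and as dioxygenases that use iron and 2-oxoglutarate they share a chemistry with the TET enzymes that make 5hmC from 5-methylcytosine. 5hmC in mammals lies mostly at CpG sites, in gene bodies and at regulatory elements of active genes.

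The RefSeq promoter table (GRCm38.p6) held entries for 4 of the 5 genes. The 250 bases upstream of the first listed start are shown for Ehmt2 and Setdb1, the loci covered most and least densely in WT cells at D10, with CpG sites, where 5hmC can form, in capitals. They lie at chr17:34898224-34898473 on the plus strand and chr3:95357203-95357452 on the minus strand of GRCm38.p6, a build other than that of the peaks, so no peak is placed on them.
Ehmt2: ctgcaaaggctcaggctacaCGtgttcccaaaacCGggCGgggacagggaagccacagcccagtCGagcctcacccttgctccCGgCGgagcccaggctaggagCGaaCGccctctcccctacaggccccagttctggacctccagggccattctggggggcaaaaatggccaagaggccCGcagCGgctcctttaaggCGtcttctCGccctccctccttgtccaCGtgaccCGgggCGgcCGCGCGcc
Setdb1: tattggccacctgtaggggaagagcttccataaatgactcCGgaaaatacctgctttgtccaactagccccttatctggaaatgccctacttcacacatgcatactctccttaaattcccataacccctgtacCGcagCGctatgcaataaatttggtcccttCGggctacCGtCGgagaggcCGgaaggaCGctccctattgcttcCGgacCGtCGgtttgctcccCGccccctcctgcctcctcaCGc
These windows hold 18 CG dinucleotides for Ehmt2 and 13 for Setdb1, read on either strand alike, against a median of 6 over the 32851 promoters of the table. At least as many were present in 21.7% of all promoters for the Ehmt2 count and in 31.5% for the Setdb1 count. The first listed starts of Ehmt1 and Kdm3a had 26 and 20. Further listed starts had 36 for Ehmt2, and 31 and 0 for Kdm3a, so these counts do not rank the genes.

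The pre-iPSC lists held 55134 to 161004 peaks and the mESC lists 24130 to 33576, and the absolute read depth is unknown. The WT lists were longest at D2 and shortest at D10. A locus can therefore gain or lose peaks with the length of the list alone, and 2 measures are given. The first is every deposited peak. The second, called scaled coverage below, counts the base pairs of a locus under the 55130 strongest peaks of each pre-iPSC list, the number in the shortest, scaled to the mean total. Tests on scaled coverage use log2(bp + 200), a scale that understates the change of sparsely covered loci. The WT C library at D0 was named by its authors in a style without the word input, and the styles of the other run names group WT B with KO1 and WT C with KO2.

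**Figure D1:**
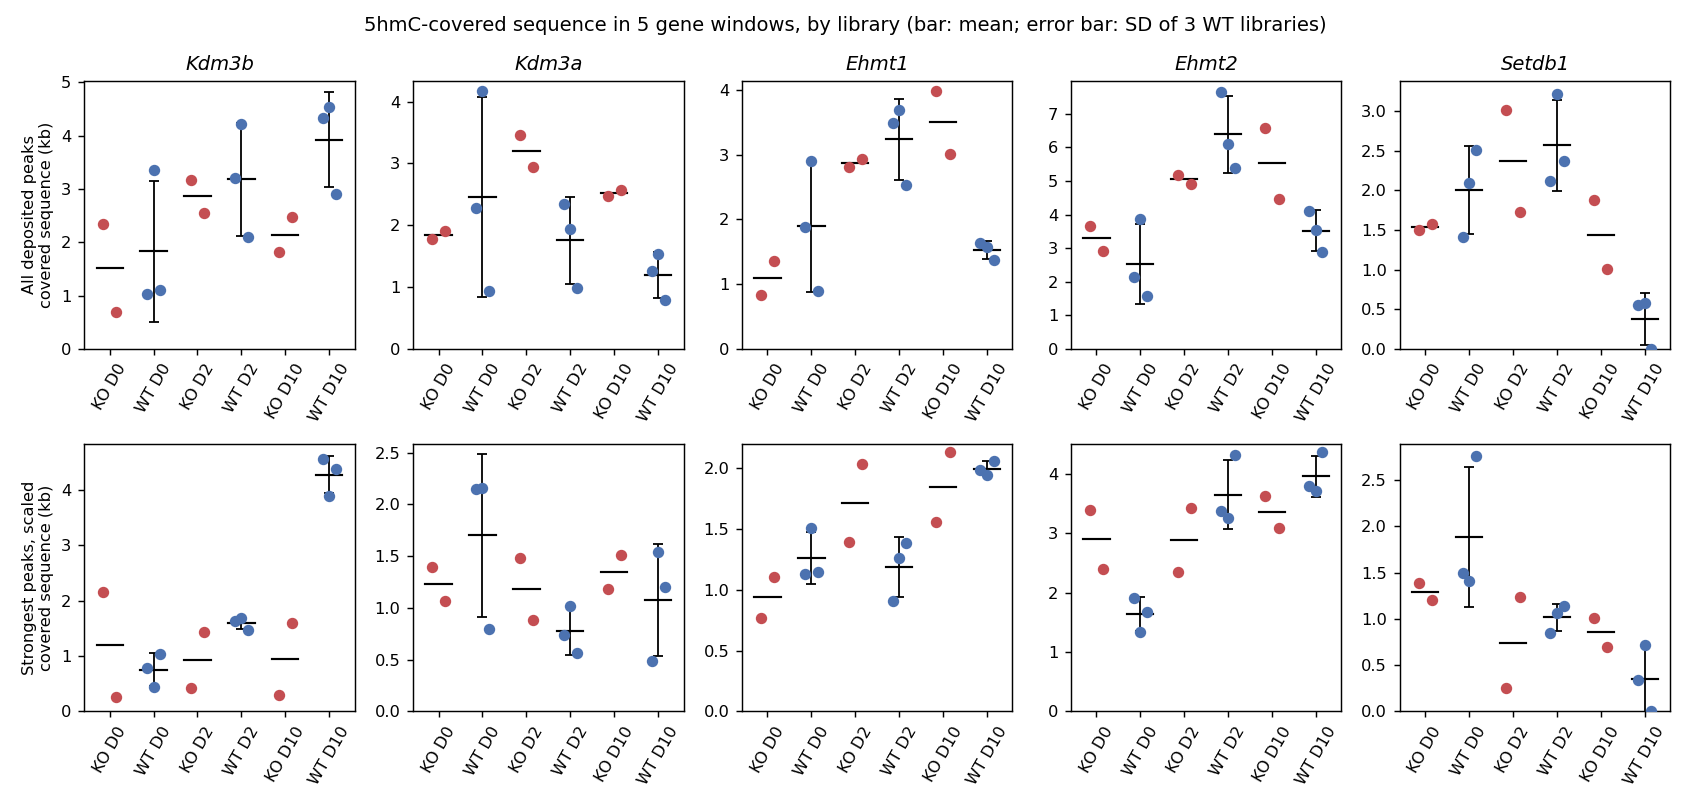
Covered sequence (kb) of the 5 loci in each pre-iPSC library, with every deposited peak in the upper row and scaled coverage in the lower row; KO libraries are red, WT libraries blue, bars are means and error bars the SD of 3 WT libraries. In the lower row the WT D10 libraries of Kdm3b lie between 3897 and 4555 bp, above all other libraries of that panel, and those of Setdb1 between 0 and 719.6 bp.

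In WT cells scaled 5hmC coverage rose at the demethylase locus Kdm3b and at the methyltransferase locus Ehmt2, and fell at the methyltransferase locus Setdb1, while Kdm3a gave no call. In WT cells from D0 over D2 to D10, mean scaled coverage of Kdm3b was 753 ± 301, 1598 ± 114 and 4279 ± 342 bp (SD, n = 3 each). That of Ehmt2 was 1638 ± 282, 3647 ± 578 and 3958 ± 349 bp. That of Setdb1 was 1884 ± 756, 1014 ± 147 and 354 ± 360 bp. An exact permutation F test over the 3 days, two-sided and with 0.00357 as its smallest possible p, gave p = 0.00357 for Kdm3b, 0.00357 for Setdb1, 0.0143 for Ehmt2, 0.0286 for Ehmt1 and 0.275 for Kdm3a. The Ehmt1 value did not stay under 0.05 in the exact permutation test without any 1 of the WT D10 libraries (p = 0.0536, 0.05 and 0.0714 without A, B and C). On all deposited peaks, unscaled, the exact permutation test gave p = 0.114 for Kdm3b and 0.125 for Ehmt1.

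The loci were also fitted with limma as rows of a table of 50 kb windows of the whole genome, with Benjamini-Hochberg adjustment over the table. The locus rows are of unlike length, from 26001 bp for Ehmt2 to 145001 bp for Ehmt1. Their bases are also counted in the genome windows. For WT D10 against D0, Kdm3b and Ehmt2 were called higher and Setdb1 lower. Of the 14090 genome windows, 20.4% were called higher and 24.4% lower, so calls in this comparison are frequent everywhere. Kdm3b was 2.27 higher in log2 (SE 0.30, adjusted p = 0.000159), Ehmt2 was 1.18 higher (SE 0.24, adjusted p = 0.00177) and Setdb1 fell by 2.08 (SE 0.52, adjusted p = 0.00689). Ehmt1 gave a log2 change of 0.59 (adjusted p = 0.127) and Kdm3a of -0.57 (adjusted p = 0.336), and neither was called. On all deposited peaks Kdm3b was 1.18 higher with an adjusted p of 0.0511 and Ehmt2 0.52 higher with an adjusted p of 0.356, while the call of Setdb1 held.

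KDM3B is a demethylase of the mono- and dimethyl marks, and its locus rose in scaled coverage in WT cells. The WT libraries A, B and C counted 3, 8 and 3 peaks there on D0, 9, 13 and 6 on D2, and 13, 14 and 10 on D10, although the D10 list was the shortest of each letter. In scaled coverage WT A, B and C had 787, 437 and 1037 bp at D0, 1628, 1694 and 1473 bp at D2, and 4555, 3897 and 4385 bp at D10. The 3 days did not overlap. For D10 against D2 the limma change was 1.31 (SE 0.30, adjusted p = 0.00497, with 16.9% of windows called higher and 22.9% lower). For D2 against D0 it was 0.96 (SE 0.30, adjusted p = 0.0443, with 10.9% called higher and 8.07% lower). That last call did not hold without WT A or B at D0 (adjusted p = 0.092 and 0.148) or without WT A, B or C at D2 (adjusted p = 0.104, 0.113 and 0.082).

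The peaks new to Kdm3b at D10 were separate and short. Overlapping peaks of all 18 lists were merged into regions, 34 of them at Kdm3b. A region is called gained where all libraries of one group and none of the other had a peak, from every deposited peak. In WT cells 5 of 26 Kdm3b regions with a peak at D10 or D0 were gained at D10 and 1 was lost, where 8.47% of all such regions of the genome were gained and 11.6% lost. Against D2, 4 of 27 regions were gained and 3 lost, with 4.17% and 16.9% over the genome. The region chr18:34972850-34973308 is of the first kind, with 459, 287 and 225 bp covered in WT A, B and C at D10 and no peak in any other library. The neighbouring chr18:34971987-34972656 was also covered in the 3 WT libraries of D10, in no WT library of D0 or D2, and in 1 of the 2 KO libraries of D10.

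**Figure D2:**
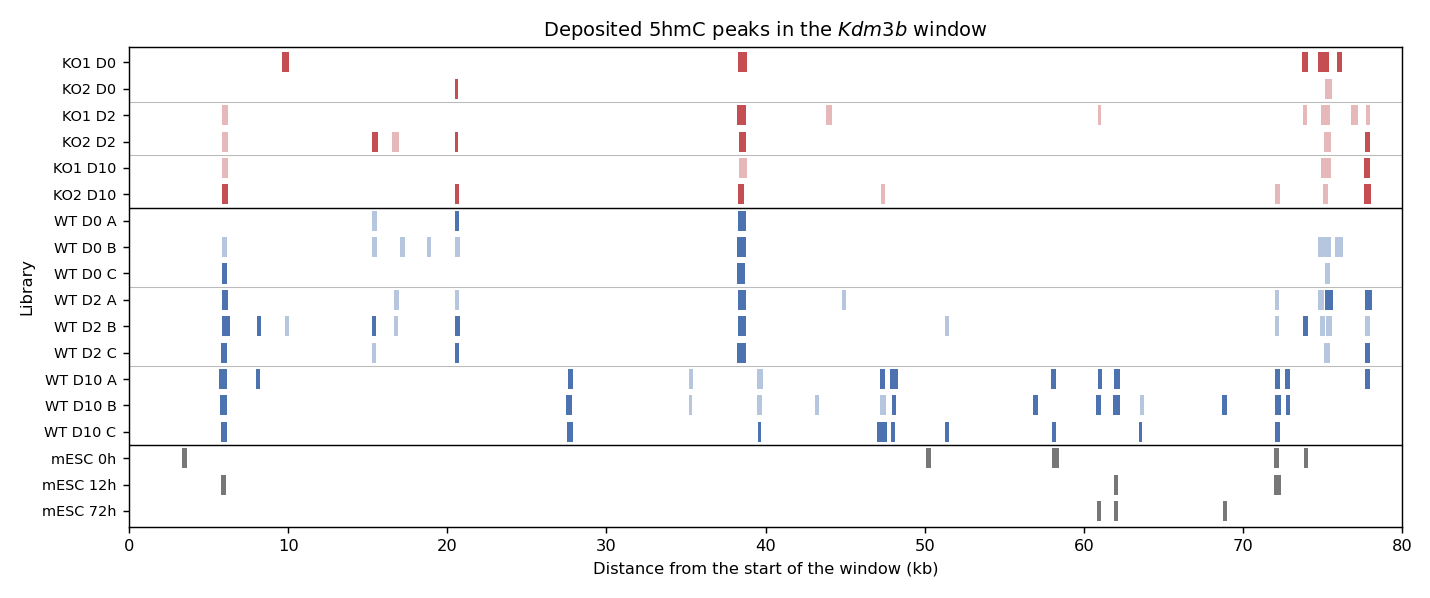
Deposited 5hmC peaks (bars) along the Kdm3b window, in kb from its start, 1 row per library, with KO libraries red, WT blue and mESC grey; full colour marks pre-iPSC peaks among the 55130 strongest of their list and pale colour the weaker ones. The WT D10 rows hold 13, 14 and 10 peaks, many of them between 40 and 80 kb.

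Other Kdm3b regions did the opposite. At chr18:34963175-34963854 all 6 WT libraries of D0 and D2 had a peak of 477 to 559 bp, with an enrichment of 6.15 to 8.96 (the authors' fold per peak, used here only to describe peaks). No WT library had a peak there at D10, whereas KO1 had 511 bp and KO2 had 401 bp at D10. The region chr18:34999713-35000667 was likewise without a peak in WT at D10 and had 618 bp in KO1 and 362 bp in KO2. Of these KO peaks at D10, only that of KO2 in the former region was among the 55130 strongest of its list. The D10 lists held 112303 and 111281 peaks in KO1 and KO2, against 86465, 77530 and 55134 in WT A, B and C. Whether list length alone gave the weaker KO peaks was not tested. The Kdm3b region found in the most pre-iPSC libraries, chr18:34930623-34931324, had a peak in 12 of 15, the 3 WT libraries of D10 among them.

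At D10 Kdm3b was the only 1 of the 5 loci called different between KO and WT in the 50 kb table. KO1 and KO2 held 4 and 7 peaks, against 13, 14 and 10 in WT A, B and C. Scaled coverage was 293 and 1599.7 bp in KO, against 4555, 3897 and 4385 bp in WT, and the groups did not overlap. The limma change was -2.25 (SE 0.66, adjusted p = 0.0256), where 6.99% of 14240 windows were called lower and 11.8% higher. By exact permutation p was 0.1, and 2 against 3 libraries cannot give less. The call was lost without any 1 of the WT D10 libraries (adjusted p = 0.062, 0.0581 and 0.0656 without A, B and C) and without KO1, where the change was -1.31 with an adjusted p of 0.291. On all deposited peaks the change was -0.81 and not called (adjusted p = 0.275), and KO1 and KO2 covered 1812 and 2472 bp, against 4333, 4535 and 2911 bp in WT. Within the run name styles the D10 difference was -3.05 for KO1 with WT B and -1.35 for KO2 with WT C. The same pairs gave 1.89 and -1.45 at D0 and -1.62 and -0.035 at D2. For KO2 with WT C the difference was thus no smaller at D0 than at D10.

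On D0 and D2 the KO lines were far apart at Kdm3b. At D0 scaled coverage was 2161 bp in KO1 and 251 bp in KO2, against 787, 437 and 1037 bp in WT. At D2 it was 415 bp in KO1 and 1432 bp in KO2, against 1628, 1694 and 1473 bp in WT. Neither day gave a call in limma (log2 0.17 and -0.84, adjusted p = 0.991 and 0.807), where 0.00702% of windows were called higher at D0 and none lower, and none at D2. The difference between the D2-to-D10 change of KO and that of WT was -1.40 (SE 0.94, adjusted p = 0.397, with 2.76% of windows called higher and 1.14% lower), so the lower coverage of KO at D10 was not shown to differ from that at D2.

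KDM3A is a close relative of KDM3B, and its locus as a whole was not called between any WT days in the 50 kb table. A difference between these loci was not tested. Mean scaled coverage of Kdm3a in WT cells was 1702 ± 787 bp on D0, 777 ± 230 bp on D2 and 1075 ± 539 bp on D10 (SD, 3 libraries a day), and the days overlapped. WT A, B and C counted 5, 7 and 3 peaks on D0, 7, 5 and 3 on D2, and 3, 4 and 2 on D10. A cluster of 3 adjoining regions changed alike over the WT days. The regions chr6:71557297-71558648, chr6:71559642-71560498 and chr6:71560601-71561102 had a peak in all 6 WT libraries of D0 and D2 and in none of D10. They are the only Kdm3a regions lost between those days, 3 of 13, beside 16.9% over the genome.

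The same Kdm3a cluster separated the KO lines. KO1 had a peak in all 3 regions on each of the 3 days. KO2 had a peak in 2 of them at D0 and in none at D2 or D10. In the longest of the 3, KO1 covered 276, 258 and 425 bp from D0 over D2 to D10, while KO2 covered 405 bp at D0 only. In WT A, B and C that region had 848, 1212 and 280 bp at D0 and 354, 325 and 246 bp at D2. The peaks of this merged region do not all overlap: those of KO1, KO2, WT A and WT C at D0 lie in its right part, clear of the D2 and D10 peaks in its left part, and only the D0 peak of WT B spans both. As a whole the locus held more peaks in KO cells at D10, 6 and 9 in KO1 and KO2 against 3, 4 and 2 in WT, but its scaled coverage was 1181 and 1508 bp in KO against 485, 1539 and 1202 bp in WT. The limma change of 0.37 was not called (adjusted p = 0.664).

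**Figure D3:**
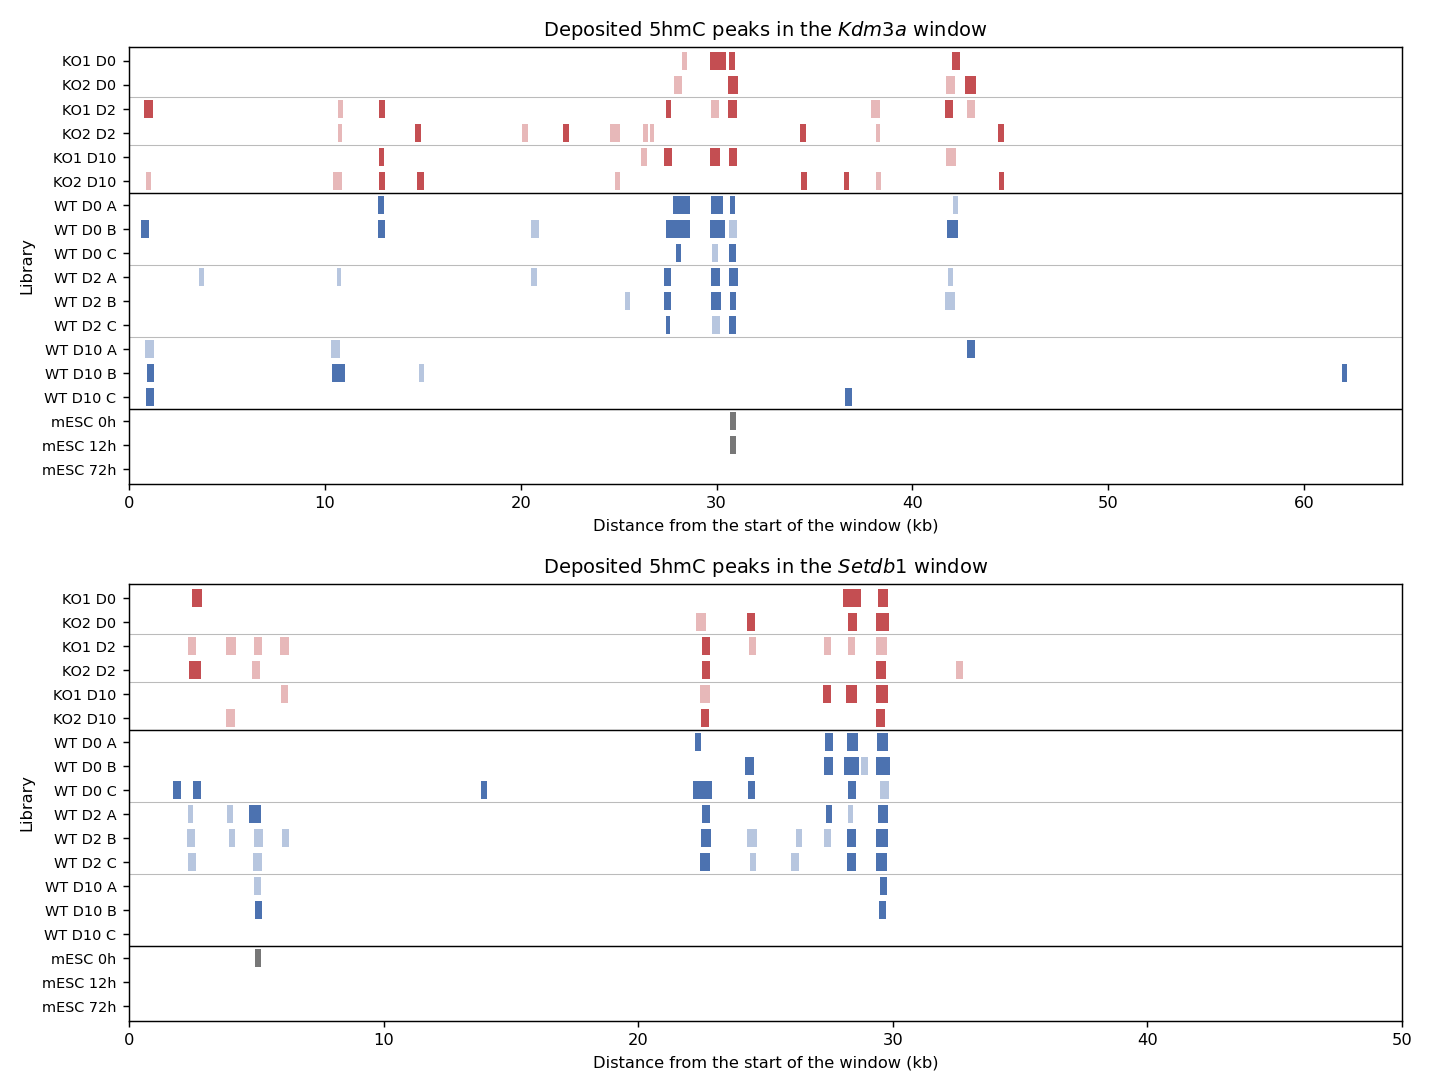
Deposited 5hmC peaks (bars) along the Kdm3a window (top) and the Setdb1 window (bottom), in kb from the window start, 1 row per library, with KO libraries red, WT blue and mESC grey; pale pre-iPSC peaks are outside the 55130 strongest of their list. At Kdm3a the block of 3 regions near 30 kb is present in WT at D0 and D2 and absent at D10, and Setdb1 holds 2, 2 and 0 peaks in WT at D10.

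EHMT2 makes the dimethyl mark, and its locus was the most densely covered of the 5. Counting all deposited peaks of WT cells, 9.73 ± 4.62% of the window lay under peaks on D0, 24.6 ± 4.46% on D2 and 13.5 ± 2.36% on D10 (SD, 3 libraries a day). In the other 4 loci the WT group means lay between 0.759% and 5.13%. Its 13 regions were also widely shared, and none had a peak in 1 library only, whereas 24.8% of the 113 regions of all 5 loci and 31.2% of the 360970 regions of the genome did. Scaled coverage of WT A, B and C was 1904, 1342 and 1669 bp at D0, 3374, 3256 and 4310.3 bp at D2, and 3799, 3717 and 4358 bp at D10. D0 lay below both later days, while D2 and D10 overlapped. The limma change for D2 against D0 was 1.06 (SE 0.24, adjusted p = 0.0104).

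The region chr17:35031961-35033802 of Ehmt2 was the only 1 of the 113 with a peak in all 15 pre-iPSC libraries, which 0.684% of regions over the genome had. It covered 1161 bp in KO1 and 1053 bp in KO2 at D0, against 729, 1089 and 662 bp in WT A, B and C. At D2 it covered 1686 and 1635 bp in KO, against 1534, 1733 and 1544 bp in WT. At D10 it covered 1805 and 1512 bp in KO, against 741, 828 and 292 bp in WT. At D10 the covered length was thus greater in both KO libraries than in every WT library, and in WT libraries it was below that of every D2 library. Some of these lengths are sums of separate peaks, such as 490 and 251 bp in WT A at D10, whereas each KO library of D10 had 1 unbroken peak. Its peak in KO1 at D10, with the authors' fold of 20.5, had the highest enrichment in the 5 loci. No mESC list had a peak there.

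Further along the Ehmt2 window lay regions that were new after D0. The region chr17:35042181-35044989 had no peak in any KO or WT library at D0. At D10 it covered 357 bp in KO1 and 1550 bp in KO2, against 2409, 2021 and 1958 bp in WT A, B and C. The adjoining chr17:35045304-35045885 had a peak in both KO libraries of D2 and of D10 and in none of D0, and the same held for the 3 WT libraries. In the opposite direction, chr17:35048214-35048852 had a peak in all 6 WT libraries of D0 and D2 and in none of D10, and chr17:35054108-35055160 had a peak in the 3 WT libraries of D2 and in no other library. Of 12 Ehmt2 regions with a peak at D10 or D2 in WT, 5 were lost and none was gained, beside 16.9% lost and 4.17% gained over the genome.

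This shift also appeared in the fit of 10 kb windows over the genome, where 3 windows of the 5 loci passed the filter of a mean of 500 covered bp. The first Ehmt2 window, chr17:35030001-35040000, was 1.60 higher in WT at D2 than at D0 (limma, SE 0.25, adjusted p = 0.00344, with 14.8% of 14776 windows called higher and 2.98% lower). For D10 against D2 its change was -1.03 (SE 0.25, adjusted p = 0.00861, with 33.2% called lower). The second, chr17:35040001-35050000, was 1.15 higher at D10 than at D2 (SE 0.32, adjusted p = 0.0164, with 13.8% called higher). The call of the second did not hold without WT B at D2 (adjusted p = 0.0555) or WT C at D10 (adjusted p = 0.0547), and on all deposited peaks its change was -0.027. Between D10 and D2 the median window fell by 0.60, and relative to it the change of the first was -0.43 and not called.

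Between KO and WT at D10 the first of these windows was called higher and the second lower. The first had 2214 and 1899 bp in KO, against 743, 1094 and 878 bp in WT (log2 1.04, SE 0.33, adjusted p = 0.0328, with 20.8% of 15744 windows called higher). The second had 763 and 1191 bp in KO, against 3056, 2623 and 3479.8 bp in WT (log2 -1.48, SE 0.41, adjusted p = 0.0162, with 5.06% called lower). The median window was 0.66 higher in KO, and relative to it the first was 0.38 higher and not called. Without KO1 neither call held (adjusted p = 0.134 and 0.123), and the first was also lost without WT A or WT C (adjusted p = 0.0773 and 0.0623). On all deposited peaks the change of the second was 0.14. In limma none of the 3 windows was called at D0 (1 had an unadjusted p under 0.05) or at D2 (0 had), where 0.0381% of windows were called higher and 0.0127% lower at D0, and none higher and 0.0254% lower at D2. The 1 at D0 was the first Ehmt2 window, with a limma change no smaller than at D10 (log2 1.09, SE 0.33, adjusted p = 0.345). It had 1374 and 1352 bp in KO at D0, against 680, 430 and 509 bp in WT. The difference in this window was thus not particular to D10. Over the whole locus scaled coverage at D10 was 3630 and 3090 bp in KO, against 3799, 3717 and 4358 bp in WT, with no call (log2 -0.22, adjusted p = 0.669). At D0 it was 3396 and 2396 bp in KO, against 1904, 1342 and 1669 bp in WT. These D0 groups did not overlap, and limma gave no call (log2 0.745, adjusted p = 0.567).

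**Figure D4:**
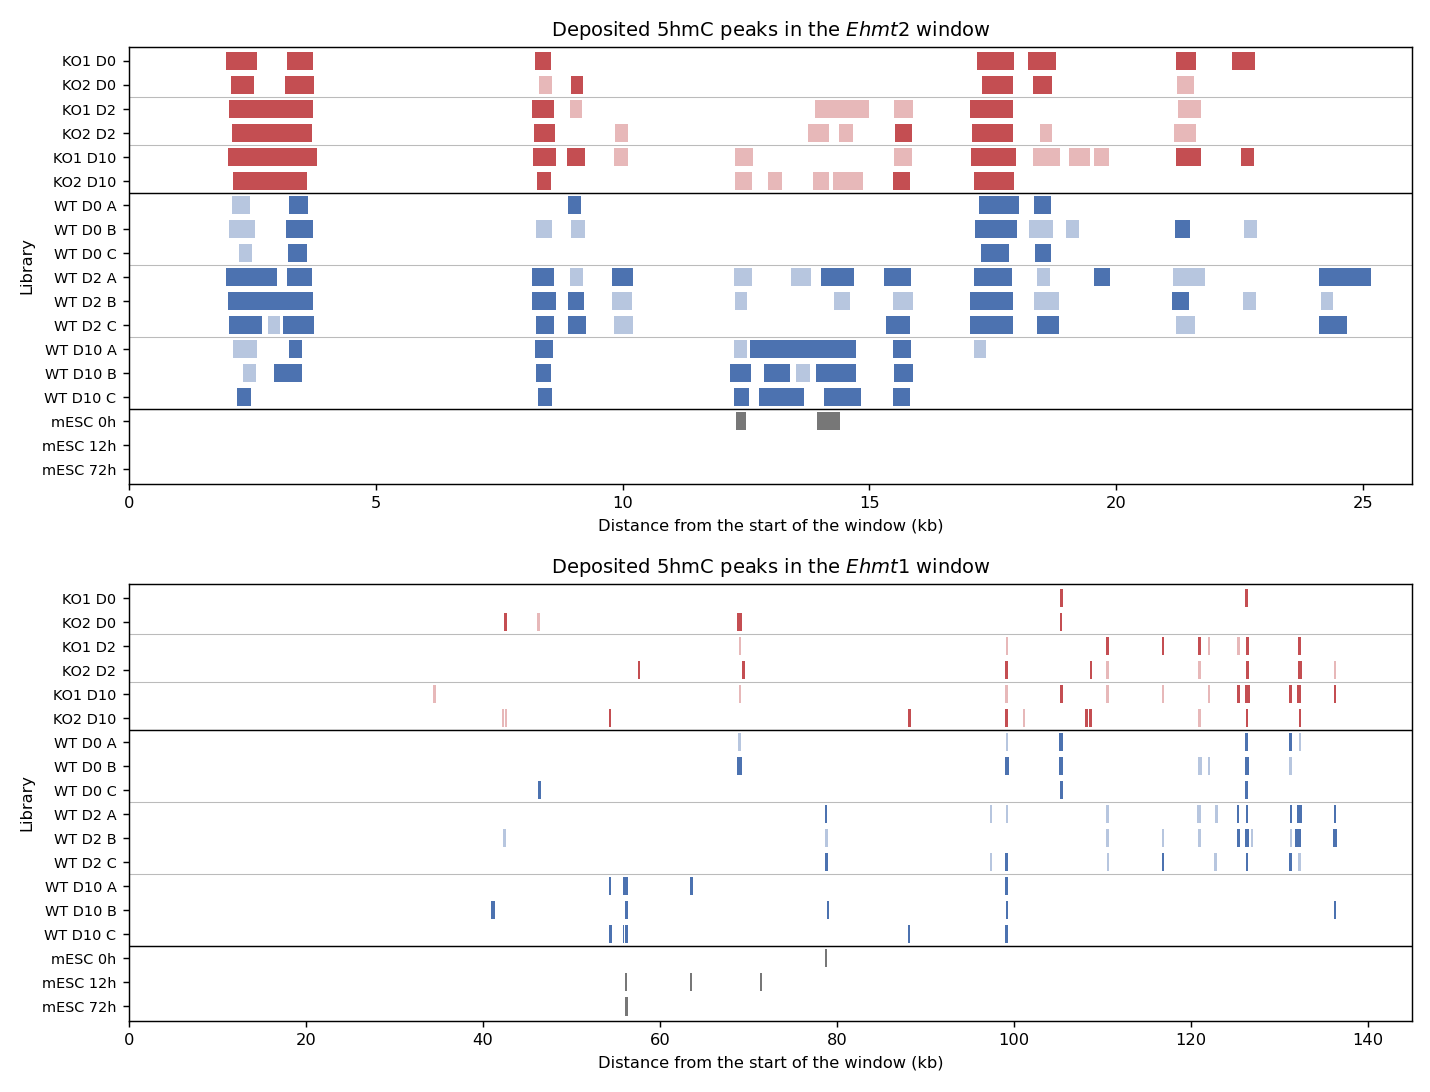
Deposited 5hmC peaks (bars) along the Ehmt2 window (top) and the Ehmt1 window (bottom), in kb from the window start, 1 row per library, with KO libraries red, WT blue and mESC grey; pale pre-iPSC peaks are outside the 55130 strongest of their list. At Ehmt2 the leftmost region is a single peak of 1805 and 1512 bp in KO at D10, and in WT at D10 its peaks add up to 741, 828 and 292 bp.

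EHMT1, the partner of EHMT2, had a sparse locus. At D10 KO1 and KO2 counted 12 and 11 peaks, against 4, 5 and 5 in WT A, B and C. The WT libraries counted 6, 7 and 3 on D0 and 11, 11 and 9 on D2. Scaled coverage at D10 was 1554 and 2133 bp in KO, against 1984, 1939 and 2061 bp in WT, and was not called (log2 -0.12, adjusted p = 0.87). The region with the highest enrichment of this locus, chr2:24766030-24766658, had a peak in all 6 WT libraries of D0 and D2, with folds of 5.29 to 12.3, and in none of D10. At D10 both KO lines had a peak there, with 535 bp in KO1 and 266 bp in KO2, although KO2 had none at D0. The region chr2:24695762-24696426 was new in WT at D10, with 631, 316 and 557 bp, and was absent from all 6 KO libraries. It was present in mESC at 12 and 72 hours. Over WT D10 against D2, 1 of 19 regions was gained and 4 were lost, near the genome shares of 4.17% and 16.9%.

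SETDB1 places the trimethyl mark, and its locus was less covered in WT cells at D10 than at D0 or D2 by either measure. Between D0 and D2 the measures differed. Mean scaled coverage went from 1884 to 1014 bp and mean coverage by all deposited peaks from 1999 to 2566 bp. The limma change of the whole locus for D2 against D0 was -0.72 and not called (adjusted p = 0.348). WT A, B and C counted 4, 5 and 7 peaks on D0, 7, 10 and 7 on D2, and 2, 2 and 0 on D10. Scaled coverage was 1491, 1406 and 2755 bp at D0, 851, 1058 and 1134 bp at D2, and 341, 719.6 and 0 bp at D10, and the days did not overlap. The 10 kb window chr3:95140001-95150000 carried the change, with a log2 value of -2.08 for D10 against D0 (SE 0.40, adjusted p = 0.0024, with 27.1% of windows called lower and 22.7% higher) and -1.58 for D10 against D2 (adjusted p = 0.0106, with 33.2% of windows called lower). Relative to the median window, the D10-against-D2 change was -0.98 and not called (adjusted p = 0.0752), and for the whole locus in the 50 kb table it was -1.36 and not called (adjusted p = 0.0553). Within it, chr3:95148056-95148750 had a peak in all 6 WT libraries of D0 and D2 and in none of D10. The region chr3:95149336-95149868 had a peak in 14 of the 15 pre-iPSC libraries, all but WT C at D10.

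KO cells held 5 and 3 Setdb1 peaks at D10 in KO1 and KO2, against 2, 2 and 0 in WT. Scaled coverage was 1014 and 700.4 bp in KO, against 341, 719.6 and 0 bp in WT, and the groups overlapped. The locus change of 1.17 in log2 was not called (SE 0.65, adjusted p = 0.213). Counting all deposited peaks, 1872 and 1008 bp were covered in KO, against 556, 582 and 0 bp in WT, and the change of 1.69 was called (adjusted p = 0.0352). In that measure all KO lists at D10 were longer than all WT lists at D10. For the 10 kb window the limma estimate of the D2-to-D10 change was 2.29 higher in KO than in WT and was not called (SE 0.71, adjusted p = 0.0506, with 9.49% of windows called higher and 1.68% lower). The median window was 0.75 higher in this contrast. Some of the values behind it are low, such as 250.5 bp in KO1 at D2 and 0 bp in WT C at D10. The region chr3:95142166-95142886 had a peak in both KO lines and in no WT library at D10.

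Counted over all 5 loci, WT cells lost 18 and gained 6 of 81 regions between D2 and D10, beside 16.9% lost and 4.17% gained over the genome. Between D0 and D2 they gained 7 and lost 1 of 70, beside 10.3% and 3.18%. The shares of the loci, 22.2% lost and 7.41% gained for D10 against D2 and 10.0% gained for D2 against D0, were near those of the genome. Of the 18 regions that WT cells lost, 5 were covered in both KO libraries of D10, 11 in 1 of them and 2 in neither. Over the 39919 such regions of the genome those shares were 43% for both, 44.3% for 1 and 12.7% for neither. Of the 6 regions that WT cells gained, no region had a peak in both KO libraries at D10 and 4 had one in neither, beside 0.956% and 83.7% of 9829 over the genome.

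KO against WT counted over regions gave 6 gained and 4 lost of 80 at D10, 1 gained and 3 lost of 78 at D2 and none of 45 at D0. Over the genome 10.7% were gained and 5.04% lost at D10, 1.56% and 2.27% at D2, and 0.832% and 2.96% at D0. Of the 4 lost at D10, 3 lay at Kdm3b and 1 at Ehmt1. Between KO D10 and KO D2 none of 74 regions was gained and 2 were lost, both at Setdb1, beside 0.638% and 2.07% over the genome. In limma no locus and no 10 kb window of the loci was called between those days (0 had an unadjusted p under 0.05), and neither was any window of the genome (0%). This fit did not pair the samples of a KO line between days.

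The mESC lists were short and held few peaks of these loci. At 0, 12 and 72 hours they held 5, 3 and 3 peaks at Kdm3b, 1, 1 and 0 at Kdm3a, 2, 0 and 0 at Ehmt2, 1, 3 and 1 at Ehmt1 and 1, 0 and 0 at Setdb1. Kdm3b thus had the most mESC peaks, counted over windows of unlike length. By share of the window covered, Ehmt2 was higher at 0 hours, with 2.619% against 2.015% at Kdm3b, but had no peak at 12 or 72 hours. Of the 13 regions covered in the 3 WT libraries of D10, 4 had an mESC peak, beside 50.6% of 28223 such regions over the genome. With 1 library per time no test was possible, and an absent peak in lists of this length is no measure of absent 5hmC.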

How the data were processed

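The 5hmC peaks of 15 pre-iPSC and 3 mESC libraries were used; an input library, the last of the 19 samples, has no list analysed here. The authors' reads were processed with Bowtie, SAMtools and MACS2 on mm9, per the submitters' processing notes; tool versions: not given in the sources used here. The run names in the deposited files carry a p threshold of 0.0001, and peaks were called per library. The deposited lists give, per the MACS2 column layout, the authors' score, the linear fold ratio, and -log10 of p and q per peak, which here rank, filter or describe peaks within a list. The mESC labels state that no peaks were called, yet lists are deposited for these samples and were used. Because enriched DNA was amplified and counted only as peaks, read numbers behind a peak are unknown, and no counting interval is given.

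On chromosomes 1 to 19 and X, peaks were merged at 1 bp of overlap, and scaled coverage was computed as in the text (pseudocount 200 bp). The 149 peaks on other chromosomes were left out. Differences of 1 locus were tested by exact permutation. Windows of 10 kb were kept where their mean coverage reached 500 bp and assigned to a locus where at least 50% lies inside. They were fitted with limma 3.58.1 in R 4.3.3, with trend and robust settings, and called at a Benjamini-Hochberg adjusted p under 0.05. WT days were fitted on 9 libraries, KO contrasts on 15. For the WT days scaled coverage was first rescaled to the mean total of the WT libraries, so limma changes differ slightly from those of the printed values. Code was tested on simulated data. The 50 kb table was added after seeing the data, since few windows of the loci passed the filter.

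Named regions are, per locus, the 3 with peaks in the most pre-iPSC libraries and up to 5 of the longest with a peak in all WT libraries of 1 day and none of another; counts of 5 or fewer regions may name others, chosen after their values were seen. The members and lists were chosen with earlier results of these data known. Other genes of the H3K9 pathway were not analysed here, since no mm9 annotation was used. By their titles KO1 and KO2 recur on each day and were read as lines that pair the KO samples. The deviations of same-numbered samples had correlations of 0.229 to 0.337 between days. The main limma fits did not use this pairing, also not for the KO-by-day interaction, so differences between the lines count as spread there. Alternatives were every deposited peak unscaled, peaks with -log10 q of at least 5, a pseudocount of 50 bp, no filter on windows, centring on the median window, a block for the replicate, another overlap for regions, and each library left out.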

Additional observations from a re-analysis of the deposited data

How the results depend on the processing

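Read depth behind the lists is unknown, so an absent peak may be a shallow library, and list length differs between days and lines. WT replicate letters did not pair samples (correlation of deviations between days -0.03 to 0.046). With the replicate block the exact p over WT days was 0.0833 for Ehmt1 and stayed under 0.05 for Kdm3b, Ehmt2 and Setdb1 at 0.0278, the smallest it can give. With that block, limma also lost the D2-against-D0 call of Kdm3b in the 50 kb table (log2 0.96, adjusted p = 0.06). With every deposited peak or those with -log10 q of at least 5 in place of the strongest, the exact p over WT days was 0.114 and 0.171 for Kdm3b and 0.125 and 0.168 for Ehmt1, whose D10-minus-D0 sign turned. The cause was not tested. The KO-minus-WT difference at D10 became -0.81 and -0.56 for Kdm3b, 1.09 and 1.10 for Ehmt1 and 0.61 and 0.82 for Ehmt2 under these settings, and 1.16 for Kdm3a with the q limit. With a pseudocount of 50 bp it was -2.52 for Kdm3b.

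Leaving out 1 library at a time, the exact p ranged from 0.0214 to 0.0714 for Ehmt1, and the KO-minus-WT difference from -3.18 to -1.31 for Kdm3b and from -0.32 to 0.089 for Ehmt1. In the Ehmt2 window starting at 35040001, the D10-against-D2 change in WT was -0.027 with every deposited peak and -0.075 with the q limit, and the KO-against-WT change at D10 was 0.14 and 0.15.

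The count of 10 kb windows called in the loci was 0 with the q limit and 2 with no filter for WT D2 against D0 (main 1). For D10 against D2 it was 6 with every deposited peak, 10 with no filter and 1 relative to the median window (main 3). For D10 against D0 it was 4 with every deposited peak and 12 with no filter (main 2). For KO against WT at D10 it was 5 with every deposited peak, 5 with the q limit, 7 with no filter and 1 relative to the median window (main 2), and 0 to 3 with 1 library left out (1 without WT C at D10, 0 without KO1 at D10). For the KO-by-day interaction it was 1 with the q limit, 1 with no filter and 0 to 1 with 1 library left out, against 0 (2 at an unadjusted p under 0.05). Relative to the median window, 1428 windows of the genome were higher and 1571 lower in KO at D10, and 3341 higher and 3045 lower in WT at D10 against D2. With no filter, 9 windows were tested at Kdm3b, 6 at Kdm3a, 3 at Ehmt2, 10 at Ehmt1 and 3 at Setdb1. That setting called 3.94% of genome windows higher and 6.08% lower for WT D2 against D0. The shares were 8.85% and 8.88% for D10 against D2, and 10.8% and 13.1% for D10 against D0. They were 3.66% and 6.02% for KO against WT at D10, and 1.1% and 2.11% for the interaction. Without a genome share, the counts of the other settings are no result about the loci.

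For regions, genome shares were computed under the main rule only. The counts below therefore cannot show whether the loci differ from the genome. Among the strongest peaks alone, 1 region of the loci was gained for WT D2 against D0 and 6 were lost for D10 against D2. Where a peak had to cover at least 50% of a region, 9 were lost for D10 against D2, and 5 were gained and 5 lost for D10 against D0 (8 and 8 by 1 bp). Leaving out a library loosens this rule by construction. Then 8 to 13 were gained and 1 to 3 lost for D2 against D0, 6 to 10 gained for D10 against D2, and 8 to 14 gained and 8 to 16 lost for D10 against D0, the highest without WT C.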
